A study of Mus musculus with 8 samples.

Results

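CpG island shores were examined here as 2499 tiles of 1 kb that lie directly beside a CpG-dense tile. They were taken from reduced representation bisulfite sequencing (RRBS) of mouse embryonic stem cells. The 616929 CpGs on chromosomes 1 to 19 with at least 10 reads in all 8 libraries fell into 84021 tiles, of which 49568 held 3 or more of these CpGs. A shore tile holds 3 to 10 such CpGs and touches a tile with 21 or more, called a dense tile. The choice used CpG counts and position and no methylation value. Of the 2499 shore tiles, 2484 touched 1 dense tile and 15 lay between a pair of them, and together they held 14794 CpGs. The 2484 had their dense tile at the lower coordinate in 1262 cases and at the higher coordinate in 1222 cases. They are compared with the 8160 dense tiles, and with 28597 distant tiles of 3 to 10 CpGs that have no dense tile within 10 tiles.

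RRBS reads DNA fragments cut out by a restriction enzyme after bisulfite treatment, so that a C left unconverted counts as methylated. The cells, of strain 129/SvP, were plated sparsely in FBS/LIF medium, that is serum plus leukaemia inhibitory factor, a cytokine of self-renewal. All groups share these conditions. The groups were vitamin C at 500 µM, L-proline at 1 mM together with vitamin C at 500 µM, L-proline at 1 mM alone, and untreated cells, each on day 2 and day 5, with 1 library each. The labels name no separate cultures, animals or clones, so each difference below sets single libraries against each other.

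CpG islands are stretches rich in CpGs, often at gene starts, that are mostly free of methylation in mammalian cells. A shore is the flank of an island, where CpGs thin out and methylation climbs to the level of the surrounding genome, and it is known for methylation that differs between tissues. Vitamin C is a cofactor of the TET dioxygenases, which oxidise 5-methylcytosine, whereas L-proline is an amino acid. Bisulfite sequencing does not separate 5-methylcytosine from its first oxidation product, 5-hydroxymethylcytosine.

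Sequences are shown at 3 gene starts to make the layout visible. They were chosen after the values were seen: Barhl1 for the largest loss with vitamin C among windows with 8 or more shore CpGs, Chdh for the largest such loss among windows that cross from shore to dense tile, and Gprin2 as a border example. Their losses are therefore descriptions of chosen sites. Each is the RefSeq promoter window, 250 bases before to 50 after the gene start, written 5′ to 3′ on the gene's strand in build GRCm38.p6. The methylation files use mm9, for which no genome was used, and windows were matched to the listed CpGs by CpG spacing. Capitals mark the CpGs measured in all 8 libraries.
Barhl1, chr2:28916619-28916918, minus strand: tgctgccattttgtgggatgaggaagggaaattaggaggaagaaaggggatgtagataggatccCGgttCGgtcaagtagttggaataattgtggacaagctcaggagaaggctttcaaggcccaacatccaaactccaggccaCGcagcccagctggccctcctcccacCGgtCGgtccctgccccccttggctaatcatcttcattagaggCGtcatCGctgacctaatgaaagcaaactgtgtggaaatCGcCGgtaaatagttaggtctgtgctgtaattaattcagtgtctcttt
Chdh, chr14:30008750-30009049, plus strand: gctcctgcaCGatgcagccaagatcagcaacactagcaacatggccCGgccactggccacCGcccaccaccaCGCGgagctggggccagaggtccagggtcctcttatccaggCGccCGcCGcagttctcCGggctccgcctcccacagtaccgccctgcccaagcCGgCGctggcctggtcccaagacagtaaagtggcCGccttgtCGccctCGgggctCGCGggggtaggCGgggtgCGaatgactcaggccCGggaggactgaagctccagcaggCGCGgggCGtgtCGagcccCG
Gprin2, chr14:34201584-34201883, minus strand: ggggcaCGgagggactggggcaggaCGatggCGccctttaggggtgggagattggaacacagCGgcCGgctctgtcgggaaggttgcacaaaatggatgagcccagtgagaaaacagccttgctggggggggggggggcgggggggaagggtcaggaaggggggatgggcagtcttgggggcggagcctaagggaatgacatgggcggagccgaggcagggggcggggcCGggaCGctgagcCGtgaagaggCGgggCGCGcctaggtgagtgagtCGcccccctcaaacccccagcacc

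The window of Barhl1, a homeobox transcription factor of neural development, holds 9 CpGs, and all 9 belong to the shore tile chr2:28772001-28773000 (mm9). On day 2 their mean level was 21.4% with vitamin C, 21.1% with both supplements, 37.7% with L-proline and 36.8% in untreated cells. On day 5 it was 9.58%, 18.1%, 49.8% and 32.3% in the same order of groups. The 4 libraries with vitamin C were the low ones and did not overlap the other 4, and the matched difference with vitamin C was -21.6 ± 7.47 points (SD, n = 4 pairs, lower in 4). The CpGs within the window differed widely: the one at base 70, counted from 1 at the 5′ end, stood at 33.3% with vitamin C and 77.3% in untreated cells on day 5, while the one at base 171 stood at 4.8% and 7.0%.

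The window of Chdh, choline dehydrogenase, carries 3 CpGs of the shore tile chr14:30821001-30822000 (mm9) at its 5′ end and 21 CpGs of the dense tile after them. The 3 shore CpGs averaged 4.17% with vitamin C, 8.27% with both, 18.2% with L-proline and 16.6% in untreated cells on day 2. The 21 dense CpGs averaged 4.41%, 3.42%, 7.06% and 6.24%. On day 5 the shore CpGs averaged 3.9%, 7.50%, 23.1% and 9.90%, against 1.57%, 3.18%, 8.82% and 7.73% on the dense side, in the same order of groups. The step between shore and dense side was thus largest in the L-proline libraries.

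The 5 shore CpGs in the window of Gprin2, a G protein-regulated inducer of neurite outgrowth, averaged 1.08% with vitamin C, 2.78% with both, 12.3% with L-proline and 8.56% in untreated cells on day 5. The 7 dense CpGs of the same window averaged at most 0.843% on that day. On day 2 the shore CpGs averaged 5.04%, 2.08%, 7.58% and 0%, so that the untreated library was the lowest there. With vitamin C the matched difference of these 5 CpGs was -4.38 ± 6.49 points (SD, n = 4 pairs, lower in 3), smaller than its spread. The whole shore tile, chr14:35015001-35016000 (mm9; 7 CpGs), differed by -11.9 ± 8.14 points and was lower in 4 of 4 pairs. On day 2 the tile stood at 6.94% with vitamin C, 5.49% with both, 19.2% with L-proline and 8.93% in untreated cells.

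Every library had enough reads at the shores to place most tiles within a few points. The median shore tile held 162 to 338 reads per library, and the least-covered tile 30 to 57. Median coverage per CpG of the common set was 27 to 56 reads. The lambda contig, which usually serves as unmethylated spike-in DNA, read 0.195% to 0.513% methylated. The reads carry no molecular identifiers, so read numbers bound the counting error only.

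The dense tiles carried the low methylation of CpG islands: their mean level was 0.798% to 2.03% over the libraries, and 65.3% to 88.2% of them were under 1%. The shore tiles lay between these and the distant tiles, but much nearer to the dense ones. Their mean level on day 2 was 5.53% with vitamin C, 6.56% with both supplements, 9.93% with L-proline and 7.88% in untreated cells. On day 5 it was 4.77% with vitamin C, 6.28% with both, 13.6% with L-proline and 9.84% in untreated cells. Distant tiles of the same CpG number averaged 48.7% to 68.6%. The medians of the shore tiles were only 0.80% to 2.26%, so most shore tiles were nearly free of methylation and the means rest on a minority.

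Of the 2499 shore tiles, 1472 (58.9%) were under 5% in all 8 libraries, and 60 (2.40%) were at 50% or more in all 8. A further 197 (7.88%) crossed 50%, being at or above it in at least 1 library and under it in at least 1. At 20% or more stood 198 tiles with vitamin C, 240 with both, 382 with L-proline and 301 in untreated cells on day 2. On day 5 these counts were 166 with vitamin C, 230 with both, 542 with L-proline and 379 in untreated cells. The label of shore thus describes their place better than their level. Of the CpGs in shore tiles with 1 dense neighbour, 43.3% lay within 100 bases of the tile edge, and 15.2% lay 500 bases or more away.

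**Figure D1:**
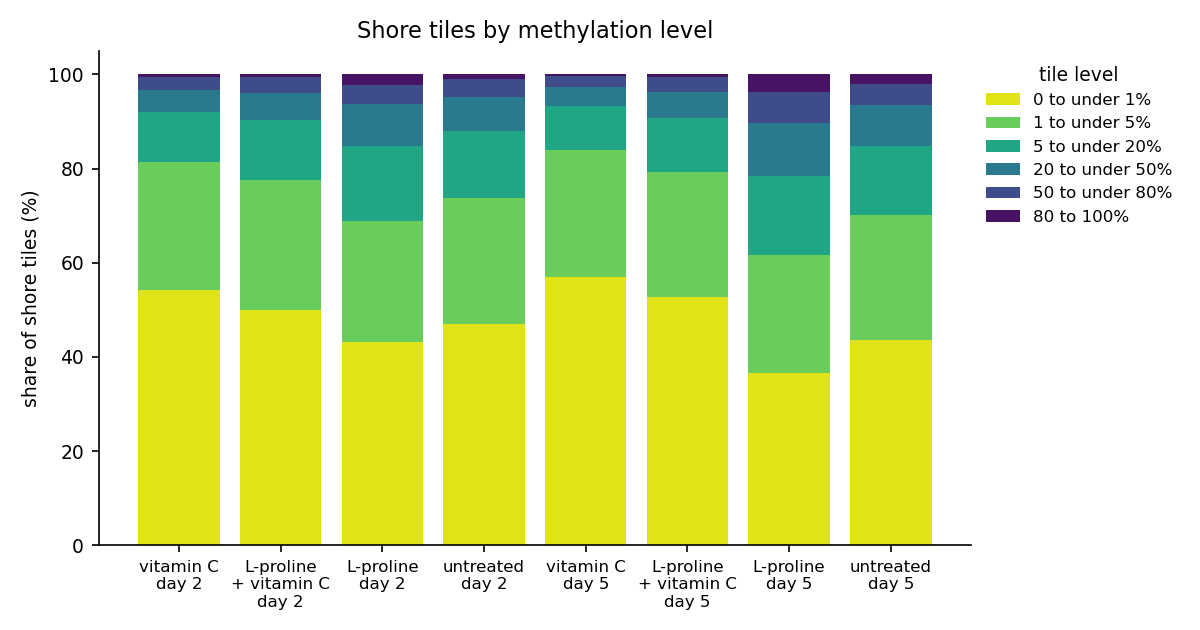
Share of the 2499 shore tiles (y axis, %) in 6 classes of methylation level for each library (x axis). The class from 0 to under 1% is the largest in every library, and tiles at 20% or more range from 166 with vitamin C on day 5 to 542 with L-proline on day 5.

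Methylation climbed with distance from the dense tile in every library. Within the dense tiles, the last 500 bases before the edge averaged 0.736% to 1.75%. In the first 100 bases outside, the mean on day 5 was 1.34% with vitamin C, 1.56% with both, 4.11% with L-proline and 2.89% in untreated cells. Between 900 and 1000 bases it was 13.9%, 16.8%, 31.9% and 25% in the same order. The slope was therefore present in all groups, and its height differed between them. On day 2 the outermost 100 bases stood at 15.7% with vitamin C, 17.9% with both, 24.4% with L-proline and 19.6% in untreated cells.

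The distance at which the mean profile first reached 10% gives the same picture in bases. On day 2 it was 559 bases with vitamin C, 440 with both, 302 with L-proline and 365 in untreated cells. On day 5 it was 607 bases with vitamin C, 459 with both, 213 with L-proline and 307 in untreated cells. Both libraries with vitamin C alone crossed farthest out and both with L-proline alone nearest. A mean of 20% was reached inside the shore tile by the 4 libraries without vitamin C, at 410 to 770 bases, and by none of the 4 with it, which first reached it 1637 to 1677 bases out. Beyond the shore tile the profile rests on few CpGs, 1829 between 1000 and 2000 bases and 971 between 2000 and 3000 bases. It dipped just beyond the shore tile to as little as 4.84% between 1100 and 1200 bases, with vitamin C on day 5, so that a crossing there is less firmly placed.

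**Figure D2:**
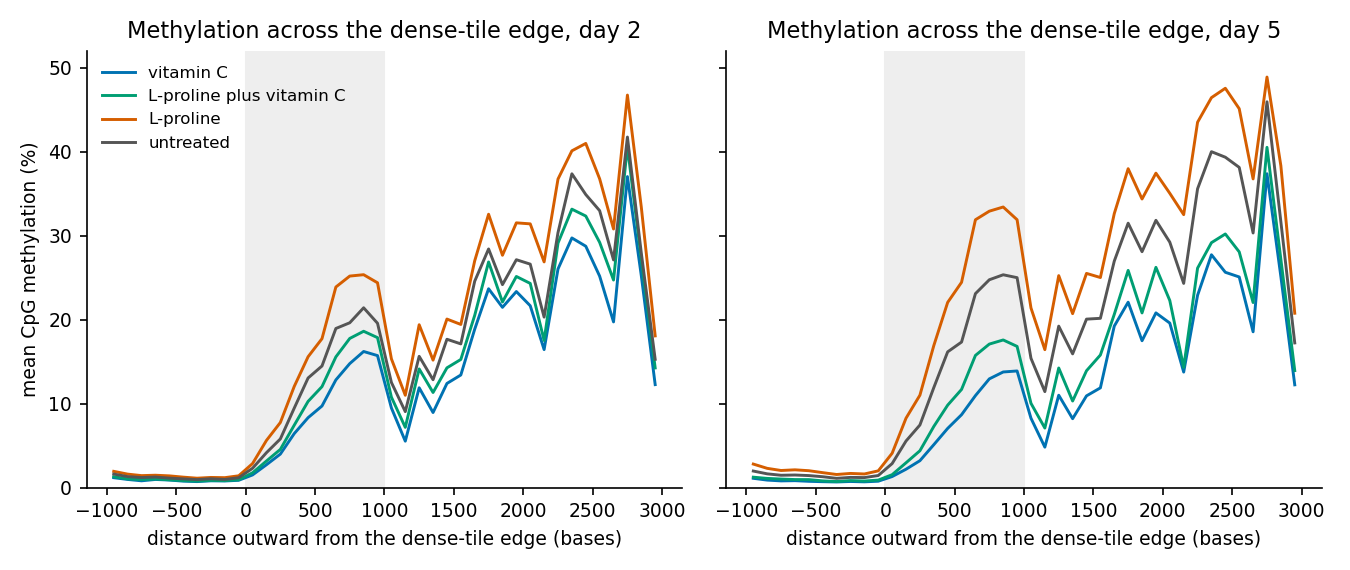
Mean CpG methylation (y axis, %) against distance outward from the dense-tile edge (x axis, bases, in bins of 100) on day 2 and day 5, one line per library, negative distances lying inside the dense tile and the grey band marking the shore tile. All 8 lines climb across the band, and on day 5 they end at 13.9% with vitamin C, 16.8% with both, 31.9% with L-proline and 25% in untreated cells.

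The climb also showed within single tiles. In the 293 shore tiles with CpGs on both sides of 500 bases, the far side on day 5 exceeded the near side by 4.54 points with vitamin C, 6.47 with both, 13.3 with L-proline and 9.34 in untreated cells. On day 2 the excess was 4.82, 6.66, 10.7 and 7.84 points in the same order. The far side was the higher one in 51.5% to 69.3% of these tiles, depending on the library, so the climb is a mean over tiles and not a property of each.

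In points, the difference with vitamin C grew outward. Over matched pairs it was -2.93 ± 1.45 points for CpGs within 500 bases of the edge and -9.40 ± 4.41 points from 500 to 1000 bases (SD, n = 4 pairs each). Relative to the matched library it had no single direction over the 10 bins of the shore tile. With vitamin C on day 5 the mean stood at 46.5% of untreated in the first 100 bases, at its lowest of 39.7% in the next 100 and at 55.6% in the last 100. With both supplements on day 5 it stood at 38.0%, 36.0% and 52.7% of L-proline alone in the same bins. On day 2 the share ran from 63.9% to 80.3% with vitamin C and from 56.6% to 73.5% with both, with the larger shares toward the outer end.

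Vitamin C went with lower shore methylation in each of the 4 matched pairs. The mean shore level with vitamin C minus without it was -2.34 points on day 2 and -5.07 on day 5 in cells without L-proline. In cells with L-proline it was -3.37 points on day 2 and -7.35 on day 5. The mean of the 4 was -4.53 ± 2.19 points (SD, n = 4 pairs), against -7.67 ± 3.37 over all tiles, -0.622 ± 0.343 in dense tiles and -10.6 ± 4.56 in distant tiles. As a difference of medians over shore tiles it was -0.668 points, and as a mean with at least 30 reads per CpG, over 502 shore tiles found anew, -1.41 points. In each pair the level with vitamin C can be set against the level without it: the shores kept 70.3% and 66.0% on day 2, and 48.5% and 46.1% on day 5, without and with L-proline. Dense tiles kept 76.6% and 67.5% on day 2 and 54.7% and 46.9% on day 5, and distant tiles kept 77.6% to 89.7%. These shares compare unlike levels: without vitamin C the mean was 10.3% at shores and 62.3% at distant tiles. Among tiles at 5% to 20% in untreated cells of the other day, shores averaged 5.30% with vitamin C and 14.5% without it. Distant tiles of that class averaged 7.13% and 18.2%. At 50% to 80% the values were 46.4% and 68.3% at shores, and 57.3% and 71.5% at distant tiles. The dense means with vitamin C were only 0.798% to 0.979%, near the 0.195% to 0.513% read at the lambda contig. The shares of the dense tiles are therefore less firm than those of the shores. Both day 5 pairs differed more than both day 2 pairs.

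For the test across tiles, each tile's methylated and unmethylated reads were turned into a log2 ratio and fitted in limma, with vitamin C, L-proline and day as additive factors. Calls required an adjusted p under 0.05, Benjamini-Hochberg over all 49568 tiles, and a mean matched difference of at least 10 points. With vitamin C, 356 of the 2499 shore tiles (14.2%) were called lower, beside 23.3% of all tiles tested. The median difference of the 356 was -19 points, and 340 of them were lower in all 4 pairs. At an unadjusted p under 0.05, 930 shore tiles (37.2%) were lower, beside 48.1% of all tiles, and a quasi-binomial fit with both criteria called 102 (4.08%), beside 4.37%. No shore tile was called higher in limma or in the quasi-binomial fit, and 27 were higher at an unadjusted p under 0.05 (1.08%, beside 0.64% of all tiles). The shore share of losses lies under that of all tiles.

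The limma fit has 4 residual degrees of freedom and no replicate of any group, so a shift of a whole library enters many tiles at once. Leaving out 1 library of day 5 lowered the count to 196 (vitamin C), 151 (both), 187 (L-proline) or 168 (untreated). The share of all tiles called in these runs was not counted. The median log2 ratio over all tiles was lower by 1.44 on average with vitamin C in matched pairs. Relative to that shift, with every library centred to one median and no minimum difference, 20 shore tiles (0.80%) were called lower, beside 0.553% of all tiles, and 432 (17.3%) higher, beside 13.5%, against 696 lower (beside 34.8% of all tiles) and 13 higher (beside 0.188%) without centring. Of the 432, 97.9% had a mean level under 5%. At such levels the added read limits how far the log2 ratio can fall, and whether this plays a part in these calls was not tested.

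A tile with a mean level under 5% cannot differ by 10 points, so the 1827 shore tiles at that level were outside the reach of the call by its rule. This mean takes in the libraries with vitamin C, so a loss itself moves a tile toward a lower class. Between 5% and 20%, 146 of 361 shore tiles (40.4%) were called, beside 42.6% of distant tiles. From 20% to 50% it was 144 of 194 (74.2%), beside 62.1%, from 50% to 80% it was 58 of 96 (60.4%), beside 44.0%, and from 80% upward 8 of 21 (38.1%), beside 24.4%. The called tiles averaged 16.4% with vitamin C, 21.6% with both, 52% with L-proline and 39.7% in untreated cells on day 5. Their CpGs lay 384 bases from the edge on average, against 206 bases in the tiles not called.

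Shore and distant tiles can be compared at a roughly like level by classing tiles on the untreated library of the other day, which enters neither library of the pair. Among tiles at 50% to 80%, vitamin C went with -21.9 ± 6.96 points at 97 to 109 shores, against -14.3 ± 5.38 points at 6192 to 8051 distant tiles. The gap was -7.67 ± 1.59 points and negative in 4 of 4 pairs. Among tiles at 80% or more, with 26 to 53 shores, it was -15.6 ± 5.04 against -8.85 ± 2.50 points, a gap of -6.78 ± 2.54 that was negative in 4 of 4 pairs. At 20% to 50% the difference was -19.3 ± 9.94 points at shores and -19 ± 10.3 points at distant tiles, and the gap of -0.340 ± 0.815 was within its spread. At 5% to 20% the gap was 1.89 ± 2.41 points, also within its spread and positive in 3 of 4 pairs. At 1% to 5%, with 663 to 673 shores, it was 1.086 ± 1.398 points. Under 1%, with 1088 to 1172 shores, it was 0.274 ± 0.292 points. In these lowest classes the gap was within its spread but positive in 4 of 4 pairs, so shores lost fewer points there than distant tiles. Shores also started lower within the classes. Without vitamin C they averaged 3.07% against 4.59% at distant tiles in the class of 1% to 5%, and 0.888% against 1.21% under 1%. At 5% to 20% it was 14.5% against 18.2%, at 20% to 50% 37.3% against 43.5%, and at 50% to 80% 68.3% against 71.5%. All errors are SDs over 4 pairs. These gaps are descriptions of single libraries.

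**Figure D3:**
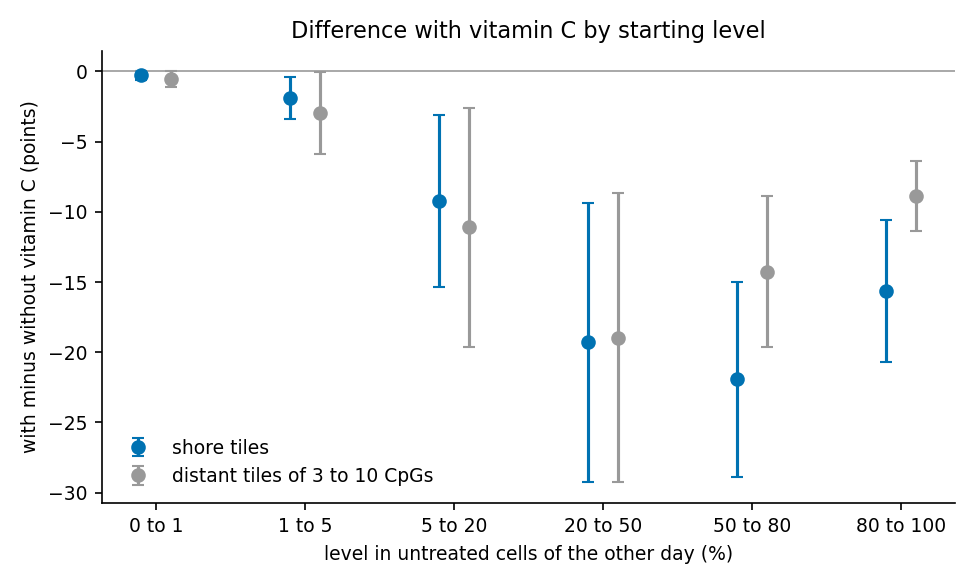
Mean matched difference with minus without vitamin C (y axis, percentage points) for shore tiles and distant tiles in 6 classes of their level in untreated cells of the other day (x axis, %), with SD over 4 pairs. The points lie apart mainly from 50% upward, at -21.9 for shores and -14.3 for distant tiles between 50% and 80%, with bars that overlap because the pairs differ in size.

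Narrower classes left the gap at 50% to 80% in place: it was -8.35 points for tiles at 50% to 60%, -8.14 at 60% to 70% and -5.58 at 70% to 80%, all chosen after seeing the data. With at least 20 reads per CpG, likewise added after seeing the data, it was -7.46. Of the sum of all losses over shore tiles, 32.3% came from tiles at 20% to 50% and 29.0% from tiles at 5% to 20%. In distant tiles 35.0% came from 50% to 80% and 34.0% from 80% or more.

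The largest called loss lay at chr6:52159001-52160000 (mm9; 5 CpGs), beside a dense tile of 25 CpGs and upstream of the start of Hoxa6, a homeobox transcription factor of body patterning, 330 bases away. Its level on day 2 was 26.8% with vitamin C, 34.9% with both, 67.3% with L-proline and 72.7% in untreated cells. On day 5 it was 14.2%, 14.4%, 82.1% and 73.4% in the same order. The 4 libraries with vitamin C lay far below the other 4, by -51.3 ± 15.5 points (SD, n = 4 pairs; limma adjusted p = 0.00922).

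A like pattern was seen at chr1:122497001-122498000 (6 CpGs), whose nearest placed gene start, 1064 bases away, is that of En1, a homeobox transcription factor of midbrain and hindbrain development. Its level on day 5 was 16.9% with vitamin C, 14.8% with both, 82.7% with L-proline and 72.8% in untreated cells. On day 2 it was 44.5%, 43.7%, 71.2% and 74.4%. The vitamin C difference was -45.3 ± 19.9 points (limma adjusted p = 0.00922), in a tile chosen for its large called loss.

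At chr1:107678001-107679000 (3 CpGs), 701 bases downstream of the start of Tnfrsf11a, the receptor RANK of osteoclast formation, the day 5 levels were 16% with vitamin C, 32.2% with both, 80.5% with L-proline and 64.9% in untreated cells. The day 2 levels were 11.8%, 38.0%, 68.8% and 60.6%, and the difference was -44.2 ± 8.92 points (limma adjusted p = 0.00922). Here the libraries with both supplements stood above those with vitamin C alone on both days. The tile chr6:39069001-39070000 (4 CpGs) lay downstream of the start of 4930599N23Rik and upstream of that of Parp12, an ADP-ribosyltransferase. Both starts were on its lower-coordinate side. Its day 5 levels were 10.5%, 31.4%, 100% and 65.0%. The day 2 levels were 21.6%, 20.6%, 65.6% and 38.0%, and the difference was -46.1 ± 22.0 points (limma adjusted p = 0.0125), over 51 to 136 reads per library. At chr7:86654001-86655000 (5 CpGs), where no gene start was placed, the difference was -42.1 ± 18.4 points (limma adjusted p = 0.00922). In the quasi-binomial fit the Parp12, En1 and chromosome 7 tiles missed the threshold, at adjusted p = 0.0646, 0.0579 and 0.0641.

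Gains with vitamin C were small. None was called, and the 5 largest among tiles higher in all 4 pairs reached at most 1.73 points, at a tile beside the start of Scamp1, a secretory carrier membrane protein. That tile stood at 5.45% with vitamin C and 0% in untreated cells on day 2, and at 1.43% and 0.542% on day 5. The others lay at chr7:130514001-130515000, inside the start region of Map9, upstream of Gtf2i and upstream of Arl6ip6, with gains of 1.16 to 1.49 points. Of these, Map9 (limma adjusted p = 0.0411), Gtf2i (0.041) and Arl6ip6 (0.0293) missed the minimum of 10 points only, and the quasi-binomial adjusted p of these tiles was 0.104, 0.109 and 0.0269. The Arl6ip6 tile read 0% in every library without vitamin C. Its quasi-binomial coefficient is therefore not bounded (33.6 on the log2 scale), and that p-value is not firm.

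L-proline went with higher shore methylation in each of the 4 pairs, by 2.05 points (day 2) and 3.79 points (day 5) where vitamin C was absent. Where it was present the differences were 1.02 and 1.51 points. The mean was 2.09 ± 1.21 points (SD, n = 4 pairs), against 3.81 ± 0.970 over all tiles. As a difference of medians it was 0.346 points, and with at least 30 reads per CpG 0.679 points. No shore tile was called for L-proline in either direction in limma, where 0% of all tiles were called. The smallest adjusted p at a shore was 0.202. At an unadjusted p under 0.05, 327 shore tiles (13.1%) were higher, beside 15.3% of all tiles, and 54 (2.16%) were lower, beside 0.763%. The quasi-binomial fit called 0 shore tiles and 0.0424% of all tiles higher.

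The largest L-proline gain lay at chr16:18425001-18426000 (3 CpGs), 510 bases upstream of the start of Txnrd2, mitochondrial thioredoxin reductase. Its levels in the L-proline libraries were 80.9% on day 2 and 91.7% on day 5, against 59.7% and 84.0% in untreated cells. With both supplements it stood at 66.7% and 62.2%, against 27.9% and 31.7% with vitamin C alone. The mean difference was 24.5 ± 13.3 points over 41 to 135 reads per library and did not pass (limma adjusted p = 0.229).

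At chr11:70466001-70467000 (8 CpGs), beside a dense tile of 73 CpGs, L-proline stood at 59.0% on day 2 and 78.7% on day 5, against 44.2% and 49.4% in untreated cells. With both it stood at 33.4% and 47.0%, against 16.8% and 17% with vitamin C alone. The mean difference with L-proline was 22.7 ± 8.06 points, which did not pass (limma adjusted p = 0.227). The rule of choice required a gain in 4 of 4 pairs. At the same tile vitamin C went with a called loss of -29.3 ± 3.33 points (limma adjusted p = 0.0108). The other tiles by the same rule had gains of 21.8 to 23.3 points without passing. They lay at chr3:53266001-53267000, on chromosome 18 and beside the starts of Tmem186 and Pmm2, the phosphomannomutase of protein glycosylation. Both of these starts were on the higher-coordinate side of their tile.

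Losses with L-proline were small and none was called, in limma or in the quasi-binomial fit with both criteria. The largest, at a tile downstream of the start of Bmt2, was -5.35 ± 2.48 points, and the others, at tiles beside Ccnt1 and Lsm14a and on chromosomes 9 and 7, were -1.91 to -1.33 points. The Ccnt1 tile had an adjusted p of 0.227 in limma and 0.00155 in the quasi-binomial fit, where it missed the minimum of 10 points only. It read 0% in the 4 libraries with L-proline, where the quasi-binomial coefficient is not bounded (-34.9 on the log2 scale), so that p-value is not firm.

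With both supplements together the shores stood below untreated cells: the difference was -1.32 points at the earlier time and -3.56 at the later one. The sum of the single differences would be -0.288 and -1.28 points. The vitamin C by L-proline term of limma, with 3 residual degrees of freedom, called 0 shore tiles. At an unadjusted p under 0.05 it was lower at 103 shore tiles (4.12%), beside 2.66% of all tiles, and higher at 49 (1.96%), beside 0.924%. The quasi-binomial fit was not run for this term.

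Between day 2 and day 5 the mean shore level moved in opposite directions with and without vitamin C. Day 5 minus day 2 was -0.764 points with vitamin C and -0.280 with both, against 3.69 with L-proline and 1.96 in untreated cells. The day term called 0 shore tiles in limma and in the quasi-binomial fit, where 0.0121% of all tiles were called higher. At an unadjusted p under 0.05, 216 shore tiles (8.64%) were higher, beside 6.57%, and 44 (1.76%) lower, beside 0.942%. The vitamin C by day term called 0 shore tiles, with a smallest adjusted p of 0.379. At an unadjusted p under 0.05 it was negative at 257 (10.3%), beside 11.4% of all tiles, and positive at 61 (2.44%), beside 0.987%. The L-proline by day term also called 0 shore tiles, with 41 negative (1.64%, beside 1.17%) and 94 positive (3.76%, beside 2.13%) at an unadjusted p under 0.05. The quasi-binomial fit was not run for these terms.

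The border of a shore was taken as the first CpG outward from the dense tile at 50% methylation or more, and set to 1000 bases where the tile held none. Most shore tiles held no border: in 1984 of 2484 (79.9%) no CpG reached 50% in any library. A border was inside the tile in all 8 libraries for 110 tiles (4.43%), in 52 of them at the same CpG. On day 2 a border was inside 168 tiles with vitamin C, 161 with both, 321 with L-proline and 243 in untreated cells. On day 5 it was inside 132, 197, 482 and 323 tiles in the same order. The L-proline library of day 5 thus had the most borders and the vitamin C library of that day the fewest.

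The mean border distance on day 2 was 967 bases with vitamin C, 969 with both, 932 with L-proline and 949 in untreated cells. On day 5 it was 975, 961, 891 and 930 bases. With vitamin C the border lay farther out in 4 of 4 pairs, by 18.2 and 36.5 bases on day 2, without and with L-proline, and by 45.2 and 70.3 bases on day 5. The mean shift was 42.5 ± 21.7 bases (SD, n = 4 pairs). It was 19.4 bases with at least 20 reads per CpG and 6.15 bases with at least 30, with the shore tiles found anew. With L-proline the shift was -16.9 (day 2) and -38.7 bases (day 5) in the absence of vitamin C, and 1.41 and -13.6 bases in its presence. Its mean of -17.0 ± 16.5 bases was close to its spread, inward in 3 of 4 pairs.

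**Figure D4:**
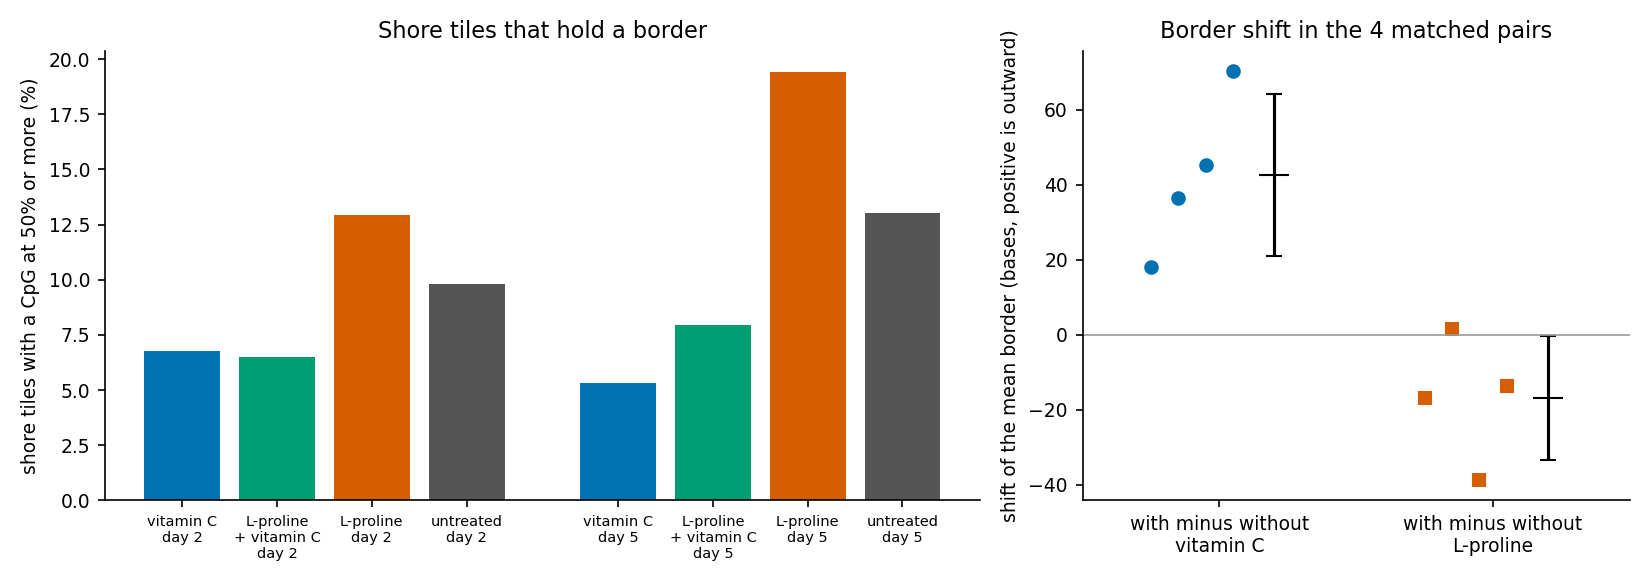
Left, the share of the 2484 shore tiles with 1 dense neighbour that hold a CpG at 50% or more (y axis, %) in each library. Right, the shift of the mean border (y axis, bases) in each of 4 matched pairs, with the mean and SD beside them: all 4 vitamin C pairs are above 0, at 18.2 to 70.3 bases, and 3 of the 4 L-proline pairs are below it.

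These shifts came mostly from borders that were present or absent and less from borders that moved. On day 5 with L-proline, 285 tiles held a border only without vitamin C and 0 only with it. In the 197 tiles that held one in both, it sat at the same CpG in 122, farther out with vitamin C in 72 and farther in in 3, with a mean shift of 35.3 bases and a median of 0. On day 5 without L-proline, 192 tiles held a border only without vitamin C and 1 only with it, and 80 of the 131 shared borders were at the same CpG. In the 110 tiles with a border in all 8 libraries, its mean distance on day 5 was 546 bases with vitamin C, 536 with both, 515 with L-proline and 518 in untreated cells. These tiles were chosen for a border in every library, so borders lost with vitamin C do not enter these means. The means with vitamin C still lay farther out than those without it on that day.

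For L-proline, 169 tiles on day 5 held a border only with it and 10 only without it, in cells without vitamin C. In cells with vitamin C these counts were 74 and 9. On day 2 with vitamin C they were 27 and 34, the pair in which the mean shift was outward.

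The 3 largest outward shifts with vitamin C, among tiles with 6 or more CpGs whose border moved outward or stayed in all 4 pairs, were all between a border and none. At chr7:148107001-148108000 (8 CpGs) no CpG reached 50% in the 4 libraries with vitamin C, while the border lay at 148 and 213 bases with L-proline and at 215 bases in untreated cells on both days. The CpG at 215 bases stood on day 5 at 20.4% with vitamin C, 41.2% with both, 69.8% with L-proline and 56.9% in untreated cells. At chr1:87914001-87915000 (10 CpGs) the border in the 4 libraries without vitamin C was always the CpG at 260 bases. That CpG stood on day 5 at 39.1%, 21.9%, 75% and 59.5% in the same order, and the 8 CpGs nearer to the dense tile stayed at or under 13.6% in every library of both days. This tile as a whole was not called (limma adjusted p = 0.0789). The tile chr14:34737001-34738000 lay downstream of the start of Gdf10, a ligand of the TGF-beta family, and upstream of that of Gm30031. Both starts were on its lower-coordinate side. Its border without vitamin C lay at 254 to 278 bases.

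**Figure D5:**
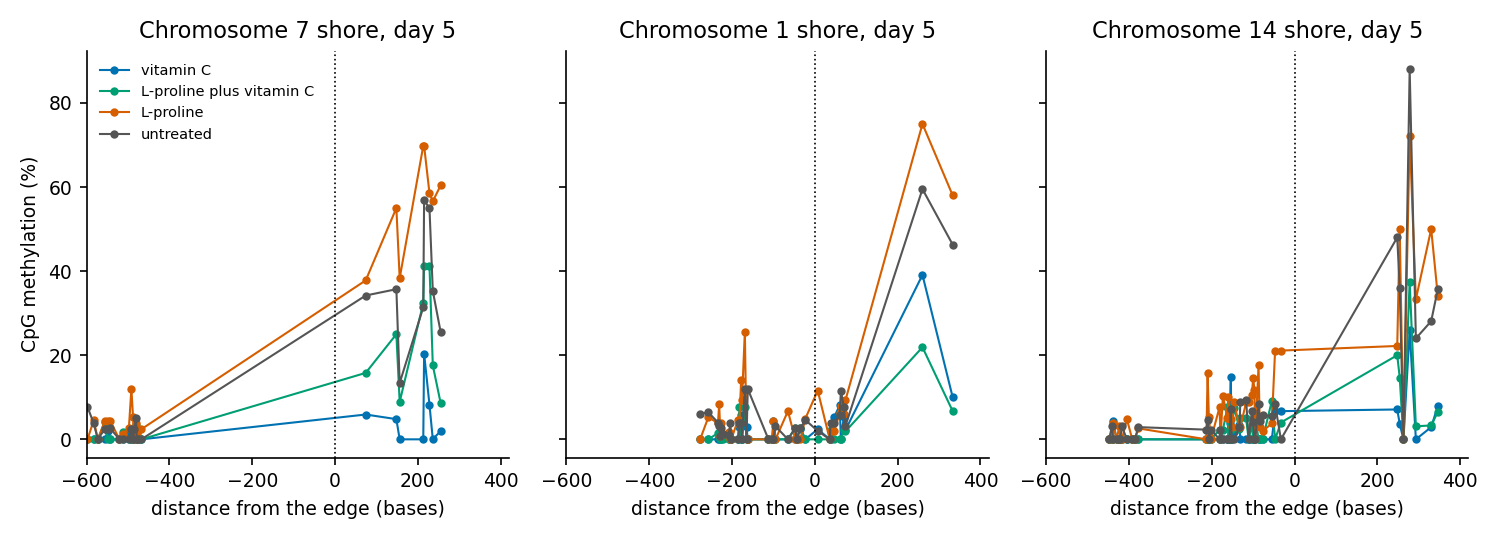
Methylation of single CpGs (y axis, %) against distance from the dense-tile edge (x axis, bases, negative inside the dense tile) on day 5 in the 3 shore tiles with the largest outward border shift with vitamin C. Outside the edge no CpG of the vitamin C or the combined library reaches 50%, while at least 1 CpG of the L-proline and untreated libraries does in each tile.

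The 3 largest inward shifts with L-proline rested on 1 or a few CpGs near the level of 50%. Upstream of Smad5, a signal transducer of bone morphogenetic proteins, the tile chr13:56803001-56804000 gained a border at 75 bases on day 5 only, at 61.5% with both against 8.8% with vitamin C, and at 60% with L-proline against 38.5% in untreated cells. In the tile of Gprin2, whose promoter is printed above, the CpG at 80 bases stood at 62.2% with L-proline and 26.5% in untreated cells on day 5, and at 50% and 20% on day 2. With both against vitamin C it stood at 4.5% and 10.8% on day 5, so the L-proline border was seen without vitamin C. As a whole the Gprin2 tile was called lower with vitamin C (limma adjusted p = 0.0137). In the quasi-binomial fit it missed the threshold (adjusted p = 0.0658). At chr11:115684001-115685000 borders came and went between 37 and 162 bases, on CpGs with as few as 11 reads in a library.

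Shores varied with their own CpG number and with their dense neighbour. In untreated cells on day 5 tiles of 3 or 4 CpGs averaged 15.3% (866 tiles) and tiles of 9 or 10 CpGs 4.23% (460 tiles), and the vitamin C differences were -6.50 ± 3.03 and -2.37 ± 1.23 points. Tiles beside a dense tile of 21 to 30 CpGs averaged 12.0% and those beside one of 61 or more 6.07%, with differences of -5.45 ± 2.52 and -3.19 ± 1.52 points. Fewer measured CpGs in the tile or in its neighbour thus went with more methylation and a larger difference in points. The length of the dense run showed no such order. In untreated cells on day 5 shores averaged 9.20% beside a run of 1 dense tile, 15.0% beside a run of 2 (279 shores) and 8.06% beside 3 or more (32 shores).

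The level of the dense neighbour went with that of its shore. With the neighbour classed on the untreated library of the other day, shores beside dense tiles under 1% averaged 4.10% with vitamin C and 7.23% without it. Beside dense tiles at 5% to 20% they averaged 17.2% with vitamin C and 31.2% without it, a difference of -14.1 ± 5.55 points (95 to 124 tiles). The shore stood above its own dense neighbour in 58.2% to 68.0% of tiles, depending on the library.

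Gene starts were placed for 6348 genes by matching RefSeq promoter windows to the CpGs by spacing, and 1251 shore tiles had one in the tile or in its dense neighbour. The 132 shore tiles with a gene start inside were almost free of methylation, at 0.738% with vitamin C, 1.13% with both, 2.77% with L-proline and 1.75% in untreated cells on day 5. The 430 upstream of a start in the dense tile and the 528 downstream of one were much alike, with 9.96% and 9.81% in untreated cells on day 5. Their vitamin C differences were -4.35 ± 2.01 and -4.60 ± 2.37 points. The 1248 without a placed start averaged 11% in untreated cells on day 5, with -5.13 ± 2.44 points. Over the 19 chromosomes the mean vitamin C difference ran from -5.46 to -3.21 points, and the mean L-proline difference from 1.62 to 2.61, so both had 1 sign on every chromosome.

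At the thresholds of the rule, the values ran on without a step. Tiles of 3 CpGs averaged 18.4% in untreated cells on day 5 and tiles of 2 CpGs, just outside, 21.1%. Tiles of 10 CpGs averaged 3.69% and tiles of 11 CpGs, just outside, 3.24%. Tiles whose larger neighbour held 21 CpGs averaged 14.4%, and those whose larger neighbour held 20, just outside, 13.1%.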

How the data were processed

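The 8 RRBS libraries, 1 per treatment and day, were grouped by their labels. The submitters' processing notes name CASAVA, BSMAP 2.88 and mm9, with no roles or settings. The deposited files list for each CpG the fraction of reads methylated, from 0 to 1, and its coverage in reads, at least 10, as the authors wrote them. Duplicate removal and conversion filters are not given in the sources used here.

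Autosomal CpGs that every library covered with at least 10 reads were put into 1 kb tiles. A tile's level is the sum of fraction times coverage over the sum of coverage. Differences were formed in 4 matched pairs per factor, and their mean and SD are given. Pairs may share a culture, which the labels do not say. The p-values of the additive fits measure the spread of these libraries around the fit, and any interaction of the factors counts in that spread. Log2 ratios with 1 read added to each side were fitted in limma 3.58.1 (R 4.3.3) over 49568 tiles, with a variance trend on depth, and the procedure was tested on simulated data. Named tiles are the 5 largest gains and the 5 largest losses per supplement that moved 1 way in all 4 pairs, taken from called tiles, or from all shore tiles where fewer than 5 were called. Border examples are the 3 largest shifts with each supplement. Promoter windows of RefSeq (GRCm38.p6) were placed by the spacing of at least 8 CpGs: of 15382 tried, 7157 had 1 perfect placing and 7092 kept the offset of the nearest other placed window within 1000 bases. No coordinates were converted between builds. The shore tiles, lists and rules were chosen with earlier results of these data known. Alternatives varied the coverage minimum, tile grid, CpG limits, pseudocount, model, centring, blocks, border level and libraries.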

Additional observations from a re-analysis of the deposited data

Results flagged for a closer look

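The change of the mean shore level between the days ran in opposite directions with and without vitamin C. Day 5 minus day 2 was -0.764 points with vitamin C and -0.280 points with both supplements, against 3.69 points with L-proline and 1.96 points in untreated cells. Each value compares 1 library with 1 library, and the difference between these means was not tested. Tile by tile, the vitamin C by day term of limma called 0 shore tiles, with 257 negative and 61 positive at an unadjusted p under 0.05, beside 11.4% and 0.987% of all tiles. The quasi-binomial fit was not run for this term. Over all tiles the same 4 changes were -1.28, -0.786, 4.96 and 4.21 points.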

How the results depend on the processing

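The mean shore differences and border shifts kept their sign in every alternative run. The vitamin C difference fell to -1.41 points with 30 reads per CpG (502 shore tiles), where L-proline gave 0.679, and to -0.668 and 0.346 as a difference of medians over tiles. The vitamin C border shift was 19.4 bases with 20 reads and 6.15 with 30. Calls with vitamin C numbered 103 of 1480 tiles at 20 reads and 15 of 502 at 30. In the main fit, which called 23.3% of all tiles, they numbered 98 of 908 beside dense tiles of 41 or more CpGs. With 6 to 10 CpGs they numbered 124 of 1270 in that fit. There were 102 in the quasi-binomial fit (4.37% of all tiles) and 20 after centring (0.553% of all tiles), where 432 were higher (13.5% of all tiles). The share of all tiles was not counted for the other read minima, the left-out libraries or the blocks. Leaving out each library in turn gave 151 to 439 calls, with the lowest counts without a day 5 library (196 without vitamin C, 151 without both, 187 without L-proline, 168 without untreated). It gave vitamin C differences of -5.26 to -3.59 points, L-proline differences of 1.53 to 2.45 and day differences of 0.305 to 1.79. Border shifts were 33.3 to 50.7 bases with vitamin C and -23.1 to -9.72 with L-proline. Gaps to distant tiles at 50% to 80% were -8.19 to -7.18 points where 3 pairs were left. An untreated library also classes tiles, so leaving it out left 1 pair, with a gap of -6.49 (without day 2) or -9.15 (without day 5). The Scamp1 tile reversed with a pseudocount of 5, to -0.21 on the log2 scale (adjusted p = 0.683). The Parp12 tile missed the threshold after centring (adjusted p = 0.0552) and without the day 5 library with both (0.0541). The cause of these moves was not tested, beyond the smaller number of tiles or libraries. No paired analysis by replicate was possible because each group has 1 library, and with matched pairs as blocks 341 shore tiles were called. Depth limits tiles of few CpGs most: the least-covered shore tile held 30 reads.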
